A study of Mus musculus with 18 samples.

Results

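Genes of the liver X receptor (LXR) axis and of the ABCA family of lipid transporters were followed across 18 RNA sequencing libraries of mouse macrophages. The 10 genes were chosen by name, with earlier results of these data known. They were the LXR gene Nr1h3, the LXR targets Abca1, Abcg1, Apoe and Mylip, and the transporter genes Abca2, Abca3, Abca5, Abca7 and Abca9. They were found by Ensembl gene ID among the 48794 rows of the deposited count table, and all 10 passed the filter on low counts that left 13177 genes for testing. Bone marrow cells of male C57BL/6 mice, whose ages and number the labels do not give, were turned into macrophages by 7 days with recombinant human M-CSF, the macrophage growth factor, at 50 ng/ml. For the next 24 h every culture had M-CSF at 10 ng/ml. The group IL4_IL13_TNFa also had mouse IL-4, IL-13 and TNFa at 10 ng/ml each, IL4_IL13 had mouse IL-4 and IL-13 at 10 ng/ml each, and Control had M-CSF alone. IL-4 and IL-13 are cytokines of type 2 immunity, and TNFa is an inflammatory cytokine. Each group held 6 libraries numbered 1 to 6, and no group had TNFa without the other cytokines.

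LXRs are nuclear receptors that bind oxysterols, oxidized forms of cholesterol, and act as heterodimers with retinoid X receptors (RXRs). In a macrophage loaded with cholesterol they switch on genes that move sterol out of the cell: ABCA1 passes cholesterol and phospholipid to lipid-poor apolipoprotein A-I, ABCG1 moves sterol to mature HDL, and apolipoprotein E is a secreted lipid acceptor. They also switch on Mylip (also called Idol), a ubiquitin ligase that limits lipoprotein uptake, and Srebf1, a driver of fatty acid synthesis. ABCA transporters are large membrane proteins with paired ATP-binding cassettes, most of which move lipids across membranes or to acceptors.

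The RefSeq promoter table (build GRCm38.p6) held entries for 9 of the 10 genes. The 250 bases before the transcription start are shown for 4 of them. Abca1 is shown for its fall with IL4_IL13 and its rise with added TNFa. Apoe, Mylip and Abca5 are shown because they shared an order of mean levels over the groups. Abca9 shared this order too but is not shown. Capitals mark matches to a motif, and each sequence runs 5′ to 3′ on the gene's own strand.
Abca1, chr4:53159896-53160145, minus strand: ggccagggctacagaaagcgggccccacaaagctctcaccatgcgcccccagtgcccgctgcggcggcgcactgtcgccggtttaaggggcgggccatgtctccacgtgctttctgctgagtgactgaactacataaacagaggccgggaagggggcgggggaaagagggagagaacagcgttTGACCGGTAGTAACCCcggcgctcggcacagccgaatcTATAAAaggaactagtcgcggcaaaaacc
Apoe, chr7:19699189-19699438, minus strand: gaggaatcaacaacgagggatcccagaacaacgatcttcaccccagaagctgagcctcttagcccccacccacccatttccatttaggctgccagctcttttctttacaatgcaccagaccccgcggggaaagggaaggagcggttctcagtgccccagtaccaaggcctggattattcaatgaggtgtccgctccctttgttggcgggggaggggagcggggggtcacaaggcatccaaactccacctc
Mylip, chr13:45389492-45389741, plus strand: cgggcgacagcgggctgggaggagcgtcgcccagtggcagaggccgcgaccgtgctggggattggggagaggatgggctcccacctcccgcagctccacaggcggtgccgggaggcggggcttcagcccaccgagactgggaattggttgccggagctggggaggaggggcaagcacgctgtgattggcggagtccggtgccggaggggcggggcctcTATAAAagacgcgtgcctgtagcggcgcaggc
Abca5, chr11:110337717-110337966, minus strand: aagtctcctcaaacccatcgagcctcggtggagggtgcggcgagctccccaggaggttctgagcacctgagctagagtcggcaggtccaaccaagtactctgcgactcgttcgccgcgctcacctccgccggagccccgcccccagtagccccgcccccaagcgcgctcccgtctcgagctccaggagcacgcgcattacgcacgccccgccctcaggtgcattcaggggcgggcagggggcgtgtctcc
The first capitals in Abca1, from 67 to 52 bases before the start, match on the opposite strand the LXR element DR4, which is AGGTCA and AGGTCA again with 4 bases between, with 3 mismatches, the most allowed. Of 32851 RefSeq promoter windows of this length, 18.5% held such a match on either strand, as did 1 of the 9 searched here. The second capitals in Abca1, and the capitals in Mylip, are the TATA box letters TATAAA, at 29 to 24 and at 32 to 27 bases before the start. These letters were in 12.4% of all windows on either strand. Searches on both strands for the repeat DR1 (AGGTCA and AGGTCA again with 1 base between, up to 2 mismatches), the STAT6 letters (TTC and GAA with 4 bases between) and the NF-kB letters (GGGAC followed at once by TTTCC, up to 1 mismatch) matched none of the 9 windows, against 3.24%, 5.85% and 2.30% of all windows. A match is a string of letters and was not tested as a binding site, and sites outside these windows were not searched. In background knowledge, LXR elements of Apoe lie in distal enhancers rather than beside its start.

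Libraries held 14793404 to 20056125 counts in all, and levels below are CPM, counts as a share of library sizes scaled by TMM. Fold changes are from edgeR's quasi-likelihood test over all 18 libraries with Benjamini-Hochberg adjustment over 13177 genes, and a gene was called at an adjusted p under 0.05. A ± after such a value is its SE, approximated from the value and the F statistic. Nothing in the labels ties the libraries of a group to different animals or cultures, and the spread behind each p may therefore be technical. Control replicate 1 stood apart: it differed over 2-fold from its group's other libraries at 1214 genes, while the next such count was 134, for IL4_IL13 replicate 1, and it was the lowest control for 8 of the 10 genes. Comparisons with Control were therefore also run without it. IL4_IL13 replicate 1 was the lowest of its own group for 6 of the 10 genes. Deviations of these 2 libraries from their group means correlated at 0.671, so leaving out the control alone is one-sided. Without all 3 libraries numbered 1, log2 fold changes with IL4_IL13 were -2.06 for Abca1, -1.81 for Apoe and 1.49 for Abcg1. Without Control replicate 1 alone they were -2.17, -1.94 and 1.39. All 7 macrophage markers were detected in every group. Their summed level was 8297 to 9090 CPM in IL4_IL13_TNFa, 8308 to 10012 CPM in IL4_IL13 and 13955 to 24620 CPM in Control, the lowest control being replicate 1.

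With IL-4 and IL-13, 2 of the 10 genes rose (Abcg1, Abca2), 7 fell (Abca1, Apoe, Mylip, Abca5, Abca9, Abca3, Abca7) and Nr1h3 was not called. Over all genes tested 59.0% were called, 29.3% higher and 29.7% lower. When TNFa was added to the 2 cytokines, 4 genes rose (Abca1, Nr1h3, Abca3, Abca7), 5 fell (Abca9, Apoe, Abca2, Abcg1, Mylip) and Abca5 was not called, against 59.6% of all genes, 30.3% higher and 29.3% lower. With the 3 cytokines against Control, 3 rose (Nr1h3, Abcg1, Abca7), 5 fell (Abca9, Apoe, Mylip, Abca5, Abca2), and Abca1 and Abca3 were not called, against 73.8% of all genes, 36.4% higher and 37.3% lower. Most of the genes tested were thus called in each comparison. The median absolute log2 fold change of the 10 genes was 1.63, 0.85 and 0.93 in these comparisons, beside 0.33, 0.34 and 0.53 over all genes tested. The signed medians were -1.0, -0.44 and -0.30 for the 10 genes, beside -0.00, 0.00 and -0.02 over all genes. The libraries of the groups did not overlap for 5, 6 and 8 of the 10 genes, against 26.7%, 44.9% and 51.2% of all genes. Each pair of these comparisons shares the libraries of a group, so their values are not independent. Because the 10 genes were chosen with earlier results of these data known, setting them beside all genes is a description and no test.

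**Figure D1:**
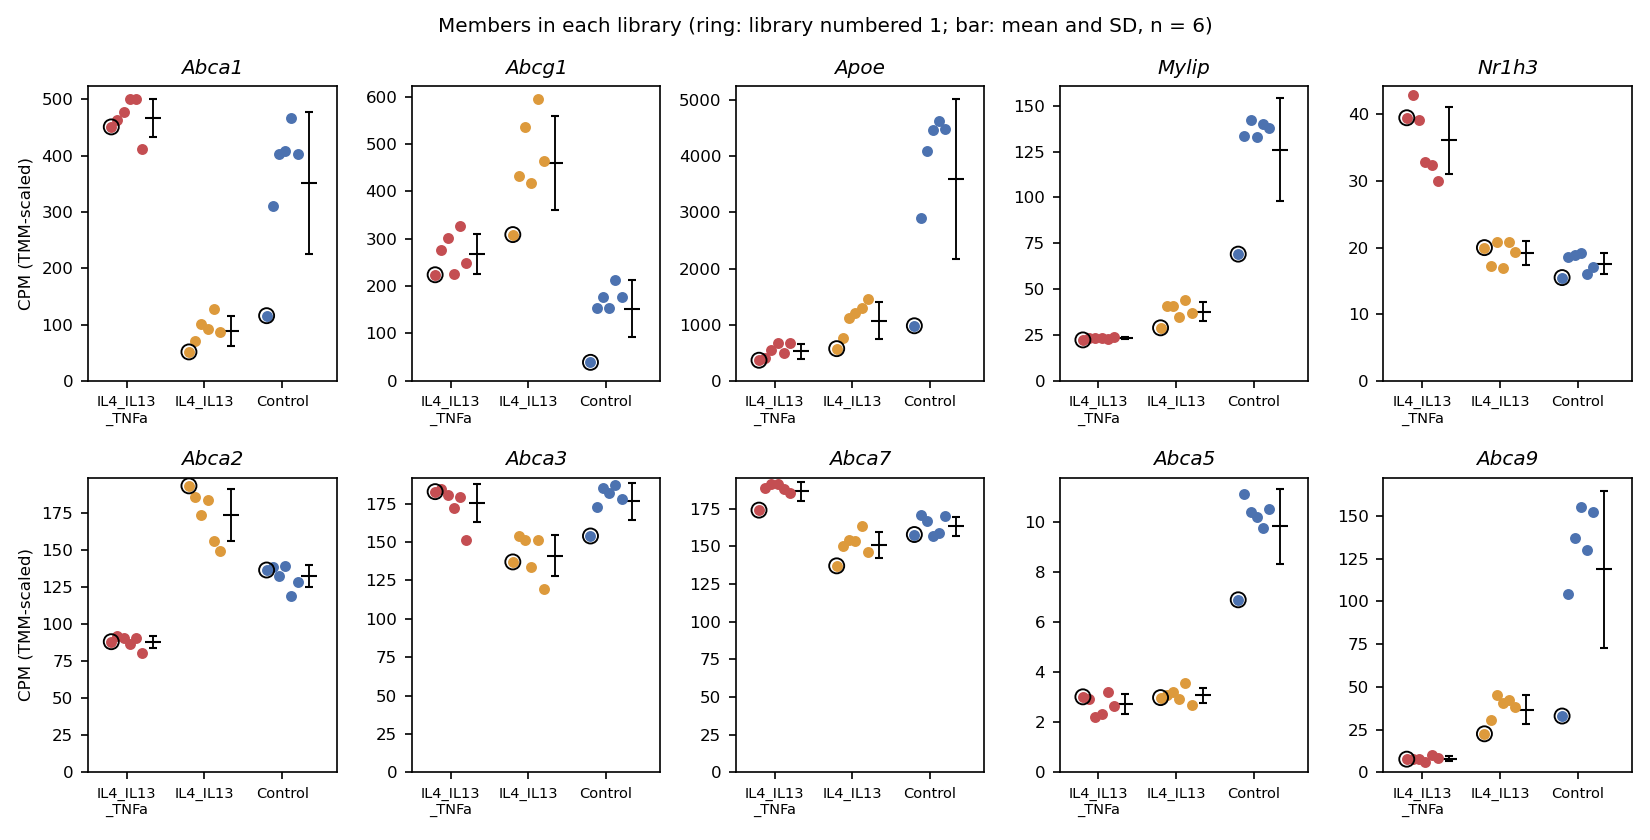
Level of each of the 10 genes in every library (CPM, linear axes from 0), with IL4_IL13_TNFa, IL4_IL13 and Control from left to right; a ring marks the library numbered 1, and the bar beside each group is the mean with its SD (n = 6). Abca1 was between 51.3 and 127.7 CPM in IL4_IL13 and above 400 CPM in every IL4_IL13_TNFa library, while the means of Apoe, Mylip and Abca9 were lowest in IL4_IL13_TNFa, between in IL4_IL13 and highest in Control.

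Abca1, on chromosome 4 from 53030787 to 53159895 (GRCm38, minus strand), fell with the type 2 cytokines and was high again once TNFa was present. Its lowest, median and highest levels were 412.0, 470.6 and 501.2 CPM in IL4_IL13_TNFa, 51.3, 89.1 and 127.7 CPM in IL4_IL13, and 115.7, 402.9 and 467.1 CPM in Control. Every IL4_IL13_TNFa library lay above every IL4_IL13 library, and of the controls only replicate 1 reached down into the IL4_IL13 range. With IL4_IL13 the log2 fold change against Control was -1.99 ± 0.26, which is 3.99-fold lower (adjusted p = 2.90e-06; -2.17 without Control replicate 1). With TNFa added it was 2.41 ± 0.26 against IL4_IL13, 5.31-fold higher (adjusted p = 2.13e-07), and 4.80% of all genes moved at least as far in that comparison. With the 3 cytokines against Control the log2 fold change was 0.41 ± 0.24 and was not called (adjusted p = 0.136). With the replicate number as a block it was 0.53 and called (adjusted p = 0.0226), and Abca1 was higher in 6 of 6 replicate numbers. It was smaller and not called without Control replicate 1 (0.23, adjusted p = 0.194), without the 3 libraries numbered 1 (0.25, adjusted p = 0.0975) and with library totals (0.16, adjusted p = 0.554). These are bulk libraries, in which fewer cells that express a gene and less RNA per cell cannot be told apart.

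Abcg1, on chromosome 17 from 31057675 to 31117988 (plus strand), the partner of Abca1 in sterol export, moved the other way in the first 2 comparisons. Its lowest, median and highest levels were 224.0, 262.5 and 328.0 CPM in IL4_IL13_TNFa, 308.9, 449.2 and 595.0 CPM in IL4_IL13, and 39.0, 165.7 and 213.5 CPM in Control. All libraries with cytokines lay above all controls, and IL4_IL13_TNFa overlapped IL4_IL13 only through the lowest library of IL4_IL13. Abcg1 rose 3.01-fold with IL4_IL13 (log2 fold change 1.59 ± 0.27, adjusted p = 6.76e-05; 1.39 without Control replicate 1). It fell 1.72-fold when TNFa was added (log2 fold change -0.78 ± 0.26, adjusted p = 0.0162, and 0.0563 when no filter on low counts was used). It stayed above Control with the 3 cytokines (log2 fold change 0.81 ± 0.27, adjusted p = 0.0104, and 0.0628 when libraries were scaled by their totals alone).

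The ratio of the 2 transporters within a library summed up these changes. Per kb of exon, Abca1 over Abcg1 had a lowest, median and highest ratio of 1.07, 1.17 and 1.57 in IL4_IL13_TNFa, 0.115, 0.133 and 0.154 in IL4_IL13, and 1.43, 1.60 and 2.09 in Control. The IL4_IL13 libraries held far less Abca1 than Abcg1, and in the other groups Abca1 exceeded Abcg1 in every library. Control replicate 1, low for both genes, had the highest ratio of the controls, so here it did not lie toward the IL4_IL13 libraries. The ratio was formed after both genes had been seen and is a description.

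**Figure D2:**
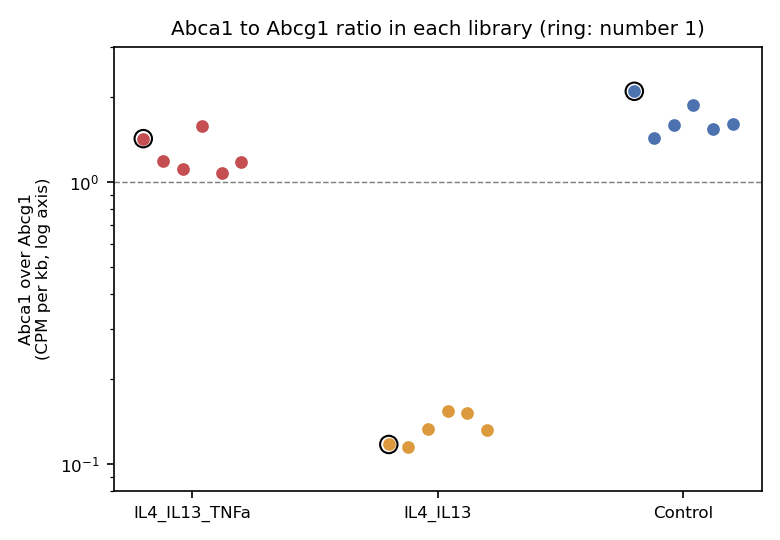
Ratio of Abca1 to Abcg1 in each library, each gene as CPM per kb of exon, on a log axis; groups are IL4_IL13_TNFa, IL4_IL13 and Control from left to right, and a ring marks the library numbered 1. The IL4_IL13 libraries sit between 0.115 and 0.154, all below the dashed line at 1, and the libraries of the other groups lie between 1.07 and 2.09.

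Apoe, on chromosome 7 from 19696109 to 19699188 (minus strand), was the most abundant of the 10 genes per kb in every group and fell at each step. Its lowest, median and highest levels were 366.3, 518.8 and 672.0 CPM in IL4_IL13_TNFa, 572.6, 1165.1 and 1455.6 CPM in IL4_IL13, and 980.3, 4285.3 and 4619.6 CPM in Control. The IL4_IL13_TNFa libraries lay below all controls, and Control replicate 1, at 980.3 CPM, was the only control within the IL4_IL13 range. The log2 fold change was -1.74 ± 0.31 for IL4_IL13 against Control (adjusted p = 0.000102; -1.94 without Control replicate 1) and -1.03 ± 0.30 for added TNFa (adjusted p = 0.00672; lower in 6 of 6 replicate numbers). For the 3 cytokines against Control it was -2.77 ± 0.32, 6.84-fold lower (adjusted p = 3.09e-07). The apolipoprotein genes beside it on chromosome 7, Apoc1, Apoc2 and Apoc4, did not pass the filter. They had 0, 0 and 1 counts over all libraries of IL4_IL13_TNFa, 6, 4 and 1 counts in IL4_IL13, and 38, 29 and 4 counts in Control.

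Mylip, on chromosome 13 from 45389742 to 45412022 (plus strand), followed the order of Apoe with less spread. Its lowest, median and highest levels were 22.3, 23.4 and 23.9 CPM in IL4_IL13_TNFa, 28.9, 38.8 and 44.1 CPM in IL4_IL13, and 69.1, 136.0 and 142.1 CPM in Control. No library of one group overlapped another group. The log2 fold change was -1.74 ± 0.14 for IL4_IL13 against Control (adjusted p = 5.67e-09; -1.86 without Control replicate 1), -0.70 ± 0.14 for added TNFa (adjusted p = 0.000309) and -2.44 ± 0.14 for the 3 cytokines against Control (5.41-fold lower, adjusted p = 2.15e-11).

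Nr1h3, the gene of LXRα, on chromosome 2 from 91184061 to 91202834 (minus strand), rose where TNFa was present, and so was highest in the group with the least Apoe and Mylip. Its lowest, median and highest levels were 30.0, 35.9 and 42.9 CPM in IL4_IL13_TNFa, 16.9, 19.7 and 20.8 CPM in IL4_IL13, and 15.5, 17.8 and 19.2 CPM in Control. The IL4_IL13_TNFa libraries lay above all others, while IL4_IL13 and Control overlapped. The log2 fold change was 0.91 ± 0.09 for added TNFa (1.88-fold, adjusted p = 5.69e-08), 1.04 ± 0.09 for the 3 cytokines against Control (adjusted p = 5.23e-09) and 0.13 ± 0.09 for IL4_IL13 against Control (adjusted p = 0.235). Gm13783, a processed transcript on the same strand, and Gm23390, a small nuclear RNA gene, overlap Nr1h3, and how shared reads were assigned is not given.

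**Figure D3:**
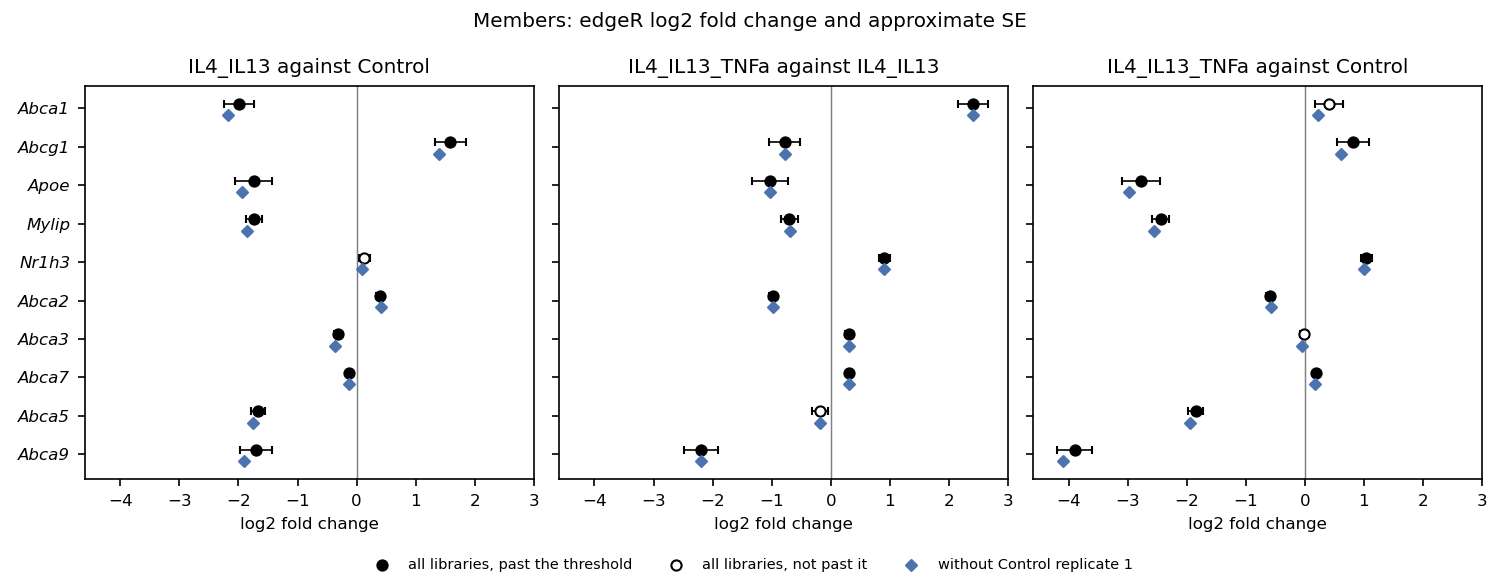
Log2 fold change of each of the 10 genes in the 3 comparisons; circles with bars are the edgeR values with approximate SE, filled where the adjusted p was under 0.05, and diamonds are the values without Control replicate 1. Abca1 lay at -1.99 with IL4_IL13 and at 2.41 when TNFa was added, while Abcg1 lay at 1.59 and -0.78.

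Of the 10 genes, Abca9 had the largest change with the 3 cytokines against Control, and it has no established place in macrophage sterol efflux. Abca9, on chromosome 11 from 110100749 to 110168196 (minus strand), had lowest, median and highest levels of 6.08, 7.86 and 10.2 CPM in IL4_IL13_TNFa, 22.5, 39.3 and 45.2 CPM in IL4_IL13, and 32.9, 133.5 and 155.2 CPM in Control. Only Control replicate 1, at 32.9 CPM, overlapped IL4_IL13, and the IL4_IL13_TNFa libraries lay below all others. The log2 fold change was -1.70 ± 0.27 for IL4_IL13 against Control (adjusted p = 3.05e-05; -1.90 without Control replicate 1), -2.19 ± 0.29 for added TNFa (adjusted p = 3.54e-06) and -3.90 ± 0.30 for the 3 cytokines against Control (14.9-fold lower, adjusted p = 1.42e-09). In the last comparison 2.60% of all genes moved at least as far.

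Abca5, a transporter of lysosomes and late endosomes, on chromosome 11 from 110269369 to 110337716 (minus strand), was the least abundant of the 10 genes per kb in every group. Its lowest, median and highest levels were 2.20, 2.77 and 3.20 CPM in IL4_IL13_TNFa, 2.69, 3.03 and 3.57 CPM in IL4_IL13, and 6.88, 10.3 and 11.1 CPM in Control. Both cytokine groups lay below all controls and overlapped each other. It fell 3.19-fold with IL4_IL13 (log2 fold change -1.67 ± 0.12, adjusted p = 1.19e-09; -1.75 without Control replicate 1) and 3.62-fold with the 3 cytokines (-1.85 ± 0.12, adjusted p = 1.06e-10). For added TNFa the log2 fold change was -0.18 ± 0.13 and was not called (adjusted p = 0.236), but it was -0.39 and called when libraries were scaled by their totals (adjusted p = 0.0148). These levels rest on 35 to 62 counts per library in the cytokine groups.

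Abca5 and Abca9 lie with Abca8b, Abca8a and Abca6 in a run of ABCA genes on chromosome 11, from 109932190 to 110337716 and all on the minus strand. Of the other 3 genes Abca8a did not pass the filter, with 6, 8 and 20 counts in all over the IL4_IL13_TNFa, IL4_IL13 and Control libraries. The 4 tested genes all fell with IL4_IL13, by similar amounts: log2 fold changes were -1.67 for Abca5, -1.45 ± 0.36 for Abca6 (adjusted p = 0.00219), -1.70 for Abca9 and -1.44 ± 0.19 for Abca8b (adjusted p = 3.43e-06). Added TNFa split them. Abca9 and Abca6 fell again, Abca6 with -1.80 ± 0.45 (adjusted p = 0.00196), while Abca5 and Abca8b were not called, Abca8b at 0.14 ± 0.20 (adjusted p = 0.559). Abca6 averaged 0.523 ± 0.243 CPM in IL4_IL13_TNFa, 1.87 ± 0.933 CPM in IL4_IL13 and 5.04 ± 2.06 CPM in Control; Abca8b averaged 3.80 ± 0.847, 3.44 ± 1.02 and 9.31 ± 0.986 CPM in the same groups (SD, n = 6 each). The difference in response between these neighbours was not tested, and reads of related ABCA genes may be shared among them.

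In the TMM-scaled fit of all 18 libraries, Abca2, Abca3 and Abca7 changed by under 2-fold in every comparison. With library totals, Abca2 fell 2.28-fold when TNFa was added (log2 fold change -1.19). Abca2, on chromosome 2 from 25428703 to 25448540 (plus strand), a lipid transporter of endosomes and lysosomes, had lowest, median and highest levels of 80.3, 89.1 and 92.0 CPM in IL4_IL13_TNFa, 149.2, 178.8 and 193.0 CPM in IL4_IL13, and 119.1, 134.2 and 138.7 CPM in Control. The 3 groups did not overlap: it rose 1.31-fold with IL4_IL13 (log2 fold change 0.39 ± 0.06, adjusted p = 2.66e-05), fell 1.97-fold when TNFa was added (-0.98 ± 0.06, adjusted p = 1.06e-10) and fell 1.50-fold with the 3 cytokines against Control (-0.59 ± 0.06, adjusted p = 7.86e-08). Its direction was thus opposite to that of Abca1 in the first 2 comparisons. Gene Mir3087 lies within Abca2 on the same strand.

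Abca3, on chromosome 17 from 24351950 to 24410201 (plus strand), which loads lipid into lamellar bodies in lung epithelium, had lowest, median and highest levels of 151.7, 180.3 and 184.7 CPM in IL4_IL13_TNFa, 119.6, 144.1 and 153.7 CPM in IL4_IL13, and 154.0, 180.0 and 187.1 CPM in Control. All IL4_IL13 libraries lay below all controls, and the highest of them just reached the lowest IL4_IL13_TNFa library. It fell with IL4_IL13 (log2 fold change -0.32 ± 0.07, adjusted p = 0.000434) and rose when TNFa was added (0.31 ± 0.07, adjusted p = 0.000478, and 0.154 with library totals). For the 3 cytokines against Control it was -0.01 ± 0.07 and not called (adjusted p = 0.896). D330041H03Rik is transcribed from the opposite strand within Abca3, and the strand setting of the counting is not given.

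Abca7, on chromosome 10 from 79996494 to 80015572 (plus strand), a close relative of Abca1 linked to phagocytosis, had lowest, median and highest levels of 174.1, 188.4 and 191.5 CPM in IL4_IL13_TNFa, 137.1, 151.8 and 163.5 CPM in IL4_IL13, and 156.6, 162.7 and 170.6 CPM in Control. The IL4_IL13_TNFa libraries lay above all others. Abca7 rose when TNFa was added (log2 fold change 0.31 ± 0.04, adjusted p = 5.85e-06) and with the 3 cytokines against Control (0.19 ± 0.04, adjusted p = 0.000611), but with library totals the last was -0.06 and not called (adjusted p = 0.216). Its fall with IL4_IL13 was small (-0.12 ± 0.04, adjusted p = 0.0277). That call was lost when the fit went without IL4_IL13 replicate 1, 2 or 6, or without replicate 2, 3 or 6 of Control (adjusted p of 0.0839, 0.0521, 0.0589, 0.0652, 0.0544 and 0.0659).

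Per kb of exon, the order of the 10 levels changed with the cytokines. Apoe led in each group, at 245.7 ± 60.4 CPM per kb in IL4_IL13_TNFa, 501.3 ± 156.9 in IL4_IL13 and 1680.3 ± 667.4 in Control (SD, n = 6 each). The second place was held by Abca1 in IL4_IL13_TNFa (45.1 ± 3.25 CPM per kb), by Abcg1 in IL4_IL13 (63.0 ± 13.6) and by Mylip in Control (39.0 ± 8.70). Abca1 came seventh in IL4_IL13, at 8.51 ± 2.52 CPM per kb, within its SD of Nr1h3 at 7.63 ± 0.691. Mylip came eighth in IL4_IL13_TNFa, at 7.20 ± 0.175 CPM per kb. In Control, Mylip and Abca1 (33.9 ± 12.1) did not differ beyond their spread, nor did Abcg1 (20.9 ± 8.20) and its neighbours Abca7 (24.2 ± 0.949) and Abca3 (18.8 ± 1.29), though Abca7 and Abca3 differed by more than their SDs. Abca2 and Abca9 (15.8 ± 0.902 and 14.7 ± 5.69) did not differ beyond their spread.

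As a description over the 18 libraries, which share groups and replicate numbers, log2 CPM of Mylip correlated with Abca5 (Pearson r = 0.97) and Apoe (r = 0.95), and Abca9 with Apoe and Mylip (r = 0.94 for both). Abca1 and Abcg1 had r = -0.29, and -0.69 without Control replicate 1, and Abca1 and Apoe r = 0.11. The 3 genes most like Abca1 over all genes tested were Atrnl1 (r = 0.983), Fbrs (0.981) and Lpcat2 (0.981). Those most like Abcg1 were Ephx1 (0.986), Mgst1 (0.982) and Irf2 (0.976). Those most like Apoe were Aagab (0.979), Bckdha (0.978) and Gpsm3 (0.976), and those most like Abca9 were Ly86 (0.994), Slc46a3 (0.993) and Smim14 (0.993). Lpcat2 averaged 152.1 ± 6.36 CPM in IL4_IL13_TNFa, 57.2 ± 8.60 CPM in IL4_IL13 and 132.0 ± 21.2 CPM in Control; Slc46a3 averaged 5.09 ± 0.680, 29.8 ± 6.70 and 82.0 ± 30.1 CPM in the same groups (SD, n = 6 each).

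Of a list of 11 other nuclear receptors and nuclear receptor coregulators, 10 were tested. With IL4_IL13 2 were higher, 7 lower and 1 not called. With added TNFa 1 was higher, 5 lower and 4 not called, and 1 higher and 9 lower when libraries were scaled by their totals. With the 3 cytokines against Control 7 were lower and 3 not called. The list's median log2 fold change was -0.38, -0.34 and -0.47 in these comparisons. Of all genes tested, 59.0%, 59.6% and 73.8% were called in them. With library totals 2313 of all genes were higher and 6089 lower with added TNFa. Rxra, which encodes an RXR, averaged 37.9 ± 1.38 CPM in IL4_IL13_TNFa, 87.7 ± 4.37 CPM in IL4_IL13 and 116.2 ± 12.6 CPM in Control (SD, n = 6 each). Its log2 fold change was -0.41 for IL4_IL13 (adjusted p = 2.09e-05), -1.21 for added TNFa (adjusted p = 7.75e-12) and -1.62 for the 3 cytokines (adjusted p = 5.41e-14). Rxra thus fell where Nr1h3 rose. Per kb of exon, Rxrb, another RXR gene, averaged 15.7 CPM in IL4_IL13_TNFa, 17.3 in IL4_IL13 and 22.9 in Control. Rxra was at 6.93, 16.1 and 21.3 CPM per kb there. Rxrb fell with IL4_IL13 (-0.41, adjusted p = 0.000613) and with the 3 cytokines (-0.54, adjusted p = 1.85e-05). For added TNFa Rxrb was -0.13 and not called (adjusted p = 0.202), but -0.34 and called with library totals (adjusted p = 0.00284). Nr1h2, the gene of LXRβ, averaged 119.2 ± 4.20, 117.6 ± 6.34 and 127.3 ± 12.6 CPM in the same 3 groups and was not called in any comparison (adjusted p of 0.105 for IL4_IL13, 0.795 for added TNFa and 0.158 for the 3 cytokines). Without Control replicate 1 it was called lower in both comparisons with Control (log2 fold changes -0.17 for IL4_IL13 and -0.15 for the 3 cytokines), and with the replicate number as a block it was called lower with IL4_IL13 (-0.11, adjusted p = 0.0397). With library totals it was called lower in each comparison: -0.16 for IL4_IL13 (adjusted p = 0.0301), -0.19 for added TNFa (adjusted p = 0.0113) and -0.34 for the 3 cytokines (adjusted p = 4.06e-05).

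Pparg, a nuclear receptor of fatty acids that shares RXR as partner, was highest in IL4_IL13, as Abcg1 was. It averaged 40.1 ± 3.47 CPM in IL4_IL13_TNFa, 108.9 ± 15.9 CPM in IL4_IL13 and 38.5 ± 2.27 CPM in Control, with log2 fold changes of 1.50 for IL4_IL13 (adjusted p = 4.06e-11) and -1.44 for added TNFa (adjusted p = 4.26e-11). Ppard, its relative, went the other way, with log2 fold changes of -0.84 for IL4_IL13 (adjusted p = 2.80e-05) and 0.79 for added TNFa (adjusted p = 4.15e-05). The coactivator gene Ncoa3 fell by 0.85 on the log2 scale with IL4_IL13 (adjusted p = 1.90e-08) and by 1.42 with the 3 cytokines (adjusted p = 3.58e-12).

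Of 18 other established LXR targets 15 were tested. With IL4_IL13 6 were higher, 5 lower and 4 not called. With added TNFa 4 were higher, 6 lower and 5 not called, or 4 higher and 9 lower with library totals. With the 3 cytokines against Control 8 were higher, 6 lower and 1 not called, or 6 higher, 7 lower and 2 not called with library totals. Of all genes tested, 59.0%, 59.6% and 73.8% were called in the 3 comparisons. With library totals 2313 of all genes were higher and 6089 lower with added TNFa, and 3285 and 6773 with the 3 cytokines. The median log2 fold change of the 15 was 0.11, -0.01 and 0.33. The largest rises with the 3 cytokines were in genes of fatty acid handling: the desaturase gene Scd2 (log2 fold changes 1.83, 0.98 and 2.81 in the 3 comparisons, adjusted p = 1.29e-10, 2.75e-07 and 9.30e-14) and the lipoprotein lipase gene Lpl (1.66, 0.38 and 2.04, adjusted p = 2.43e-13, 4.80e-05 and 3.20e-15). Scd2 averaged 214.2 ± 22.9 CPM in IL4_IL13_TNFa, 108.8 ± 10.4 CPM in IL4_IL13 and 30.6 ± 6.23 CPM in Control. Srebf1 rose with IL4_IL13 (0.34, adjusted p = 0.000107) and with the 3 cytokines (0.33, adjusted p = 8.89e-05, and 0.247 with library totals) and was -0.01 for added TNFa (adjusted p = 0.848).

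The LXR targets that fell most with the 3 cytokines were Cd5l and Mertk. Mertk, a receptor for apoptotic cells, averaged 13.0 ± 2.00 CPM in IL4_IL13_TNFa, 36.3 ± 6.13 CPM in IL4_IL13 and 123.8 ± 34.9 CPM in Control, with log2 fold changes of -1.77 for IL4_IL13 (adjusted p = 2.78e-07), -1.48 for added TNFa (adjusted p = 3.33e-06) and -3.25 for the 3 cytokines (adjusted p = 5.92e-11). Cd5l, which encodes a secreted protein of the scavenger receptor family, was at 1.18 ± 0.236, 12.4 ± 2.29 and 20.1 ± 5.32 CPM in the same groups, with log2 fold changes of -0.70 for IL4_IL13, -3.38 for added TNFa and -4.07 for the 3 cytokines (adjusted p = 0.00209, 1.62e-10 and 4.66e-12). Pltp, which encodes the phospholipid transfer protein, fell when TNFa was added (-1.55, adjusted p = 0.000229) and was at -0.04 for IL4_IL13 (adjusted p = 0.922). Arl4c rose when TNFa was added (0.57, adjusted p = 2.16e-05).

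**Figure D4:**
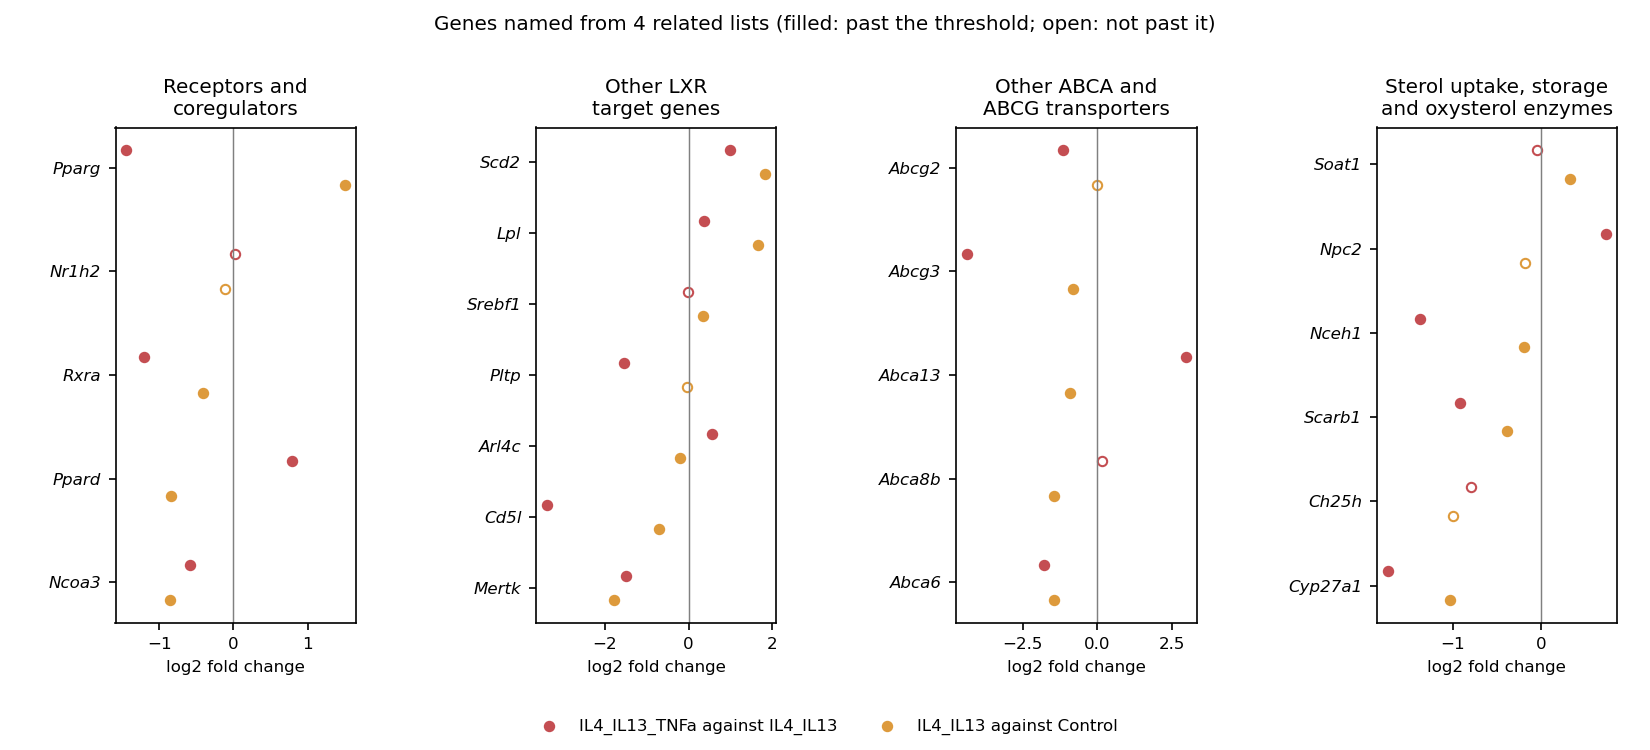
Log2 fold changes of the genes named from 4 related lists, without Rxrb, for IL4_IL13_TNFa against IL4_IL13 and IL4_IL13 against Control. Filled points passed an adjusted p of 0.05 and open points did not. Pparg lies at -1.44 and 1.50 in these comparisons, Scd2 at 0.98 and 1.83, and Cyp27a1 at -1.74 and -1.03.

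Of 15 other ABCA and ABCG genes 5 passed the filter, namely Abca6, Abca8b, Abca13, Abcg2 and Abcg3, and 4 of these were lower with IL4_IL13 and 1 was not called. With added TNFa 1 was higher, 3 lower and 1 not called, and with the 3 cytokines 1 was higher and 4 lower. Their median log2 fold change was -0.91, -1.14 and -1.29 in the 3 comparisons, in which 59.0%, 59.6% and 73.8% of all genes tested were called. Abcg2, an efflux pump for drugs and porphyrins, averaged 7.19 ± 0.928 CPM in IL4_IL13_TNFa, 15.9 ± 1.16 CPM in IL4_IL13 and 15.9 ± 1.79 CPM in Control. It fell when TNFa was added (log2 fold change -1.14, adjusted p = 3.54e-09). Abcg3, its rodent relative, was at 0.144 ± 0.0486, 3.10 ± 0.612 and 5.44 ± 1.37 CPM in the same groups and fell with the 3 cytokines (-5.16, adjusted p = 4.15e-12). Abca13, the gene that was higher, averaged 3.18 ± 0.787 CPM in IL4_IL13_TNFa, 0.401 ± 0.151 CPM in IL4_IL13 and 0.754 ± 0.275 CPM in Control. It rose when TNFa was added (2.96, adjusted p = 2.06e-08).

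Of 15 genes of sterol uptake, storage and oxysterol handling, 12 were tested. With IL4_IL13 4 were higher, 3 lower and 5 not called, and 6 were higher and 5 lower of 13 tested without Control replicate 1. With added TNFa 5 were higher, 5 lower and 2 not called, or 3 higher and 6 lower with library totals. With the 3 cytokines 6 were higher, 5 lower and 1 not called, or 5 higher and 6 lower with library totals. Of all genes tested, 59.0%, 59.6% and 73.8% were called in the 3 comparisons, and 68.1% with IL4_IL13 without Control replicate 1. With library totals 2313 of all genes were higher and 6089 lower with added TNFa, and 3285 and 6773 with the 3 cytokines. The median log2 fold change of the 12 was 0.14, -0.17 and 0.11. Cyp27a1, which makes the LXR ligand 27-hydroxycholesterol, averaged 13.5 ± 2.39 CPM in IL4_IL13_TNFa, 45.4 ± 15.8 CPM in IL4_IL13 and 92.8 ± 41.7 CPM in Control. Its log2 fold change was -1.03 for IL4_IL13 (adjusted p = 0.0200, and -0.86 with adjusted p = 0.0989 by limma voom), -1.74 for added TNFa (adjusted p = 0.000720) and -2.77 for the 3 cytokines (adjusted p = 4.06e-06). Every IL4_IL13 library (lowest 18.8 CPM) lay above Control replicate 1 (13.6 CPM), and without that control the change with IL4_IL13 was -1.26 (adjusted p = 8.77e-05). Ch25h, which makes another oxysterol ligand, fell with the 3 cytokines (-1.79, adjusted p = 0.00337, and -1.11 without Control replicate 1). Nceh1, an enzyme that frees cholesterol from its esters, fell when TNFa was added (-1.37, adjusted p = 4.20e-14). Soat1, which makes the esters, rose with IL4_IL13 (0.33, adjusted p = 0.000428) and was at -0.04 for added TNFa (adjusted p = 0.655). With IL4_IL13 Scarb1, the HDL receptor gene, fell (-0.38, adjusted p = 0.000268). Npc2, a lysosomal sterol carrier, rose when TNFa was added (0.74, adjusted p = 9.64e-07).

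Without Control replicate 1, 2 of the 10 genes were higher and 7 lower with IL4_IL13 against 68.1% of all genes called, 4 higher and 5 lower with added TNFa against 65.4%, and 3 higher and 5 lower with the 3 cytokines against 77.7%. With the replicate number as a block, 9 genes were called in each comparison, against 65.5%, 64.6% and 77.3% of all genes. Scaling by library totals put the median log2 fold change of all genes at -0.04, -0.20 and -0.27 in the 3 comparisons, and calls over all genes were then 3467 higher and 4381 lower, 2313 higher and 6089 lower, and 3285 higher and 6773 lower, against 3865 and 3909, 3999 and 3857, and 4803 and 4919 with TMM. Under totals 2 of the 10 genes were higher and 7 lower with IL4_IL13, 3 higher and 6 lower with added TNFa, and 1 higher and 6 lower with the 3 cytokines.

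Markers of other cells were followed beside these changes. Summed stromal markers (7 of 9 tested, led by Col1a1) had a lowest, median and highest level of 68.9, 157.5 and 403.8 CPM in IL4_IL13_TNFa, 64.4, 236.4 and 605.2 CPM in IL4_IL13, and 21.9, 292.7 and 695.2 CPM in Control, with the lowest in Control replicate 1. Summed dendritic cell markers (2 of 3 tested) ranged from 33.1 to 35.9 CPM in IL4_IL13_TNFa, from 2.38 to 4.96 CPM in IL4_IL13 and from 1.10 to 2.87 CPM in Control. Zbtb46 made up nearly all of the sum in IL4_IL13_TNFa, at a mean of 33.9 CPM, while Flt3 was at 0.290 CPM and Xcr1 at 0 there. Summed endothelial markers (3 of 3 tested) ranged from 1.88 to 3.42 CPM, 6.59 to 15.8 CPM and 5.62 to 22.7 CPM in the same groups. Control replicate 1 was the highest control, and the others reached 10.3 CPM. The genes in this sum went different ways. Pecam1 averaged 1.46, 6.50 and 0.548 CPM in these groups, Kdr 1.13, 1.40 and 9.19 CPM, and Cdh5 0.153, 0.874 and 0.940 CPM. Markers of neutrophils and their precursors (7 genes, 1 tested), B cells (4 genes, 1 tested), T and NK cells (4 genes, 0 tested) and mast cells and basophils (3 genes, 0 tested) summed to at most 2.81, 2.46, 0.828 and 0.264 CPM in any library, and the 3 erythroid markers and Ly6g were at 0 in every library. Of the macrophage markers, Fcgr1 was at 0.999 CPM in IL4_IL13_TNFa, 21.8 CPM in IL4_IL13 and 130.4 CPM in Control. Adgre1 was at 573.9, 1162.5 and 2306.5 CPM in the same groups. The part of these markers in the changes of the 10 genes was not tested.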

How the data were processed

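Poly(A) RNA was sequenced from stranded libraries of 18 samples, per the labels' protocols, grouped by their titles. The deposited table gives, for each gene, the number of reads as a whole-number count without normalization, judged from its values. STAR 2.5.2 or 2.5.2b and featureCounts 1.5.1 are among the tools in the submitters' processing notes, beside RSEM 1.3.0 and the build GRCm38 (mm10). The sources used here do not give the role of each, the annotation or the strand setting, so overlapping genes and relatives within a family are uncertain.

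Gene IDs were given symbols through a name table (48348 of 48794 matched); places and exon lengths are from GENCODE M21 on GRCm38. In R 4.3.3, edgeR 4.0.16 kept genes by filterByExpr (minimum count 10), scaled counts by TMM and fitted all 18 libraries by group (robust quasi-likelihood), with p adjusted over 13177 genes. The steps were tested on simulated counts. Chi-square per degree of freedom was at least 2.72 in all 45 pairs of libraries within groups, so none was counted as a copy. The groups share replicate numbers. Deviations from the group means of the 18 pairs of same-numbered libraries correlated at 0.128 to 0.671. Libraries with different numbers were not compared in this way, so the numbers may pair the libraries, but this was not settled. No label says what a number stands for. The main fit did not use the numbers, which entered as a block only among the alternatives. For Apoe with added TNFa, adjusted p was 0.00672 in the main fit and 0.000156 with the block.

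The genes described and all gene and marker lists were chosen with earlier results of these data known. From each pathway list, the rule took the 2 largest called changes per comparison and direction with at least 5 CPM in the higher group, plus Nr1h2, Rxra, Pparg and Srebf1; some genes the rule names are not reported here. Abca13, Rxrb, the members of the chromosome 11 run, and the marker genes given singly were named outside it, after their values were seen. Likeness is Pearson's r of log2 CPM (prior count 2). Alternatives were DESeq2 1.42.0 and its size factors, library totals, no filter and a stricter one (5 CPM in 6 libraries), voom of limma 3.58.1, a replicate block, only the groups compared, each library left out, and all 3 libraries numbered 1 left out.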

Additional observations from a re-analysis of the deposited data

Results flagged for a closer look

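A library was singled out where its gap to the nearest library of its group exceeded Dixon's 95% critical value. Of 42 groups examined (14 genes in 3 groups) 6 met this, and chance gives about 1 in 20. Control replicate 1 was the lowest control for 8 of the 10 genes, and 3 of them met this rule there. Abcg1 was at 39.0 CPM (others 152.9 to 213.5) and Abca5 at 6.88 CPM (others 9.75 to 11.1). Mylip was at 69.1 CPM (others 133.1 to 142.1). In the same library Nr1h2 was low at 102.5 CPM (others 128.5 to 137.3), while Srebf1 was high at 134.9 CPM (others 98.1 to 108.7). In IL4_IL13_TNFa, Abca7 was at 174.1 CPM in replicate 1 (others 185.4 to 191.5). It remained above every IL4_IL13 library, which reached 163.5 CPM.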

How the results depend on the processing

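Each value was recomputed under 27 alternatives, 18 of which left out 1 library. Of the 30 results of the 10 genes (10 genes in 3 comparisons), 22 kept their direction and their side of the threshold under all 27, and 8 did not under at least 1. The number of genes called ranged from 6717 to 9081 with IL4_IL13, from 6735 to 8727 with added TNFa and from 8049 to 10371 with the 3 cytokines, and that of the 10 genes called from 8 to 9, 8 to 9 and 7 to 9. With the replicate number as a block 8632, 8516 and 10185 genes were called, 9 of the 10 genes in each comparison. Among the 10 genes the block changed the call of Abca1 with the 3 cytokines against Control (log2 fold change 0.53) and no other call. For that comparison Abca3, at -0.01, was 0.06 with no filter, 0.00 without IL4_IL13_TNFa replicate 4 or Control replicate 3, and 0.03 without IL4_IL13_TNFa replicate 6, none of them called. Abca3 was -0.26 and called with library totals, where Abca7 was -0.06. Abca7 with IL4_IL13 lost its call with no filter (-0.06) and with only the groups compared (-0.11), besides the libraries named above. Pparg with the 3 cytokines was 0.06, and -0.19 with library totals. For added TNFa, Nr1h2 at 0.02 was -0.19 with library totals (called) and -0.00 with the stricter filter or without IL4_IL13 replicate 1, and Srebf1 at -0.01 was 0.01 without IL4_IL13_TNFa replicate 1 and 0.00 without all libraries numbered 1. With each library left out in turn, these values ranged from -0.04 to 0.03 for Abca3, -0.00 to 0.04 for Nr1h2 and -0.03 to 0.01 for Srebf1. The stricter filter left 1, 1 and 2 called genes among the other ABCA and ABCG genes in the 3 comparisons, against 4, 4 and 5 in the full fit, because low genes were no longer tested. Without the libraries numbered 1, 12 of 13 sterol handling genes tested were called with IL4_IL13, against 7 of 12 in the full fit. Calls over all genes rose too in that setting. There 4652 were higher and 4275 lower of 13260 tested, against 3865 and 3909 of 13177 in the full fit. Causes of the other shifts were not tested. Depth limits Abca5, Abca6, Abca8b, Abca13 and Abcg3, at a few CPM or less in the cytokine groups. Over all IL4_IL13_TNFa libraries Abcg3 had 13 counts and Abca6 47, and over all IL4_IL13 libraries Abca13 had 42.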
